A study of Homo sapiens with 8 samples.

Results

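Liver cell cultures grown for 5 days in a scaffold under flow were compared with cultures grown in the same kind of scaffold without flow. The perfused group (labelled 3DBR) has 2 arrays and the static group (labelled 3D) has 3, and together they are 5 of the 8 arrays of the series. The groups were taken from the group label of each sample and from no measured value. In both groups the scaffold was the MatriGrid, a support of polycarbonate with micropores, seeded with 1000000 living cells. The static scaffolds stood in the wells of a plate, and the perfused ones were housed in a bioreactor fed by a peristaltic pump. The other 3 arrays are monolayers (2D) seeded with 250000 cells, which enter the fit as a group of their own and are used below for their levels only. The labels name no drug or inducer for any group, and the sources used here do not state the medium, the flow rate or the oxygen supply.

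What the cells were is labelled in 2 ways. The sample labels call every sample HepG2, an established hepatocarcinoma line, while the design text speaks of hepatocytes from 3 donors. At least 19 of 21 macrophage markers were detected on 4 of the 5 scaffold arrays, as described below, so the material is called liver cell cultures here. The labels do not say which arrays share a source of cells, and p-values therefore measure the spread between these arrays, which may be technical. The design text counts 3 perfused cultures, and the perfused group here is 2 arrays.

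Flow through a scaffold renews medium and oxygen around the cells and adds shear at their surface. Cytochrome P450 enzymes of the endoplasmic reticulum oxidise drugs, steroids and fatty acids, and draw their electrons from the reductase POR. CYP3A4 is the main drug-oxidising P450 of adult liver, CYP3A7 its fetal relative and CYP3A5 another member of the same gene cluster. The pregnane X receptor, encoded by NR1I2, binds foreign compounds and switches on CYP3A genes through an everted repeat of the half-site AGGTCA and its like, called ER6.

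The CYP3A promoters are shown because CYP3A4 was the gene with the clearest difference between the groups. The sequences are RefSeq's (GRCh38.p14, minus strand of chromosome 7), written 5′ to 3′ from 200 bases before the transcription start up to the start. Capitals mark the match to TNAACT and AGGTCA separated by 6 bases, where N is any base, a loosened form of the ER6 element. The windows are chr7:99784185-99784384 for CYP3A4, chr7:99735197-99735396 for CYP3A7 and chr7:99679997-99680196 for CYP3A5.
CYP3A4: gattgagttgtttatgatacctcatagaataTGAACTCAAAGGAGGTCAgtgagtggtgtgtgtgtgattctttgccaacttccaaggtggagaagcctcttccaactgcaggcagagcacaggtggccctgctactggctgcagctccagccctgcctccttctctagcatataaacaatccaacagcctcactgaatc
CYP3A7: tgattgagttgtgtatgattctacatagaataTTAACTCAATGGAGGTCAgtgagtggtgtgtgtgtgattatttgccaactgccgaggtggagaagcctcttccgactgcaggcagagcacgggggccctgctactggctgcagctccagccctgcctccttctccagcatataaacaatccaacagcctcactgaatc
CYP3A5: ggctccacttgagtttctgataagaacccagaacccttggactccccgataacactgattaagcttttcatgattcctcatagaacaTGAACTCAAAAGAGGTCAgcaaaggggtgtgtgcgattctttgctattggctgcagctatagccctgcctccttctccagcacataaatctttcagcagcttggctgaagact

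The match lies 169 to 152 bases before the start in CYP3A4, 168 to 151 in CYP3A7 and 113 to 96 in CYP3A5. Counted from 1 at the 5′ end of the match, CYP3A7 differs from CYP3A4 by G2T and A10T, and CYP3A5 differs from it by G11A. The strict motif, TGAACT and AGGTCA separated by 6 bases, searched on both strands, is in 3 of 35116 promoter windows (0.00854%), those of CYP3A4, CYP3A5 and ITGB1BP2. The loosened motif is in 10 (0.0285%). Aligned end to end, the 200 bases of CYP3A4 and CYP3A7 were identical in 93% of alignment columns, and those of CYP3A4 and CYP3A5 in 55.5%. A match describes letters only and is no evidence of binding.

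The arrays lie on 2 chips, as read from the sample titles. Replicate numbers were assigned here within each group, and equal numbers in different groups mark no known shared source of cells. Static replicate 1 shares chip 1 with the perfused arrays, while static replicates 2 and 3 share chip 2 with the monolayers. Static replicate 1 also stood apart. Its correlation across genes with the other scaffold arrays was 0.911 to 0.919, against 0.945 to 0.976 among those. Of all arrays it correlated most with 2D replicate 1 (0.921). Perfused replicate 1 correlated most with static replicate 2 and 2D replicate 2 (both 0.976). Perfused replicate 2 did so with 2D replicate 3 (0.968) and static replicate 3 (0.963). On these last 3 arrays GSTM2, a glutathione transferase gene, was at 8.18 to 8.52, against 10.59 to 11.26 on the others. Whether such arrays share a source of cells was not tested. On static replicate 1, 6 of 21 macrophage markers were detected, against 19 to 21 on the other scaffold arrays, and their mean log2 level was 6.94 there against 9.09 to 10.28. C1QB, a complement subunit made by macrophages, was at 5.44 and not detected on it, and COL1A1, a fibroblast collagen, was at 6.38. Its difference between the groups was 1.28, and -0.60 without static replicate 1. TOP2A, an enzyme of dividing cells, was at 10.63 on it and at 6.54 to 7.82 on the other scaffold arrays. All 36 dividing cell genes measured were detected on it, against 20 to 24 on the other scaffold arrays. Of 11 oncofetal and hepatoma genes measured, 11 were detected on it, against 6 to 8 on the other scaffold arrays. Their mean level was 9.85 on it, against 8.83 to 9.27. 2D replicate 1 showed the same features. Which cells these arrays held was not tested. List medians are therefore also given without static replicate 1, in which case chip and perfusion cannot be told apart, and against static replicate 1 alone, which keeps to chip 1 but rests on the array that stands apart. For single genes whose difference is printed, these values are given where they moved it by over 1.5 times or turned its sign, and for the genes described at length. Genes shown by their levels alone carry no such values.

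Across the whole array, 1 of 11031 genes passed the test, and it was higher under perfusion. In the text a level is a log2 normalised intensity, a difference is perfused minus static on the log2 scale, and the test is limma with Benjamini-Hochberg adjustment at 0.05. CYP3A4 passed (0.00907% of the genes higher), none passed lower (0%), and the next adjusted p of the limma fit was 0.9996. At an unadjusted p under 0.05 there were 207 genes, 124 higher (1.12%) and 83 lower (0.752%), where evenly spread p-values would give 551.55. The median size of a difference was 0.21 and the median standard error 0.33, so the median difference was smaller than the median error. With 2 arrays against 3, an exact one-sided permutation test cannot give a p below 0.1, and genes other than CYP3A4 are described by their levels and by whether the groups overlap.

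Every perfused array was above every static array for 987 genes (8.95%) and below for 917 (8.31%). Of these, 87 were higher by over 1 (0.789%) and 32 lower by over 1 (0.29%). Of the 87, 41 also differed by over 1 both without static replicate 1 and against it alone, and 7 of the 32 did. Without static replicate 1, the counts with no overlap past 1 were 120 higher (1.09%) and 86 lower (0.78%). The larger differences are thus unevenly split, and a scaling that sets only the array medians equal made the split 165 to 14. That scaling moved the median difference of all genes from 0.00 to 0.12, and the authors' own processed values moved it to 0.06.

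**Figure D1:**
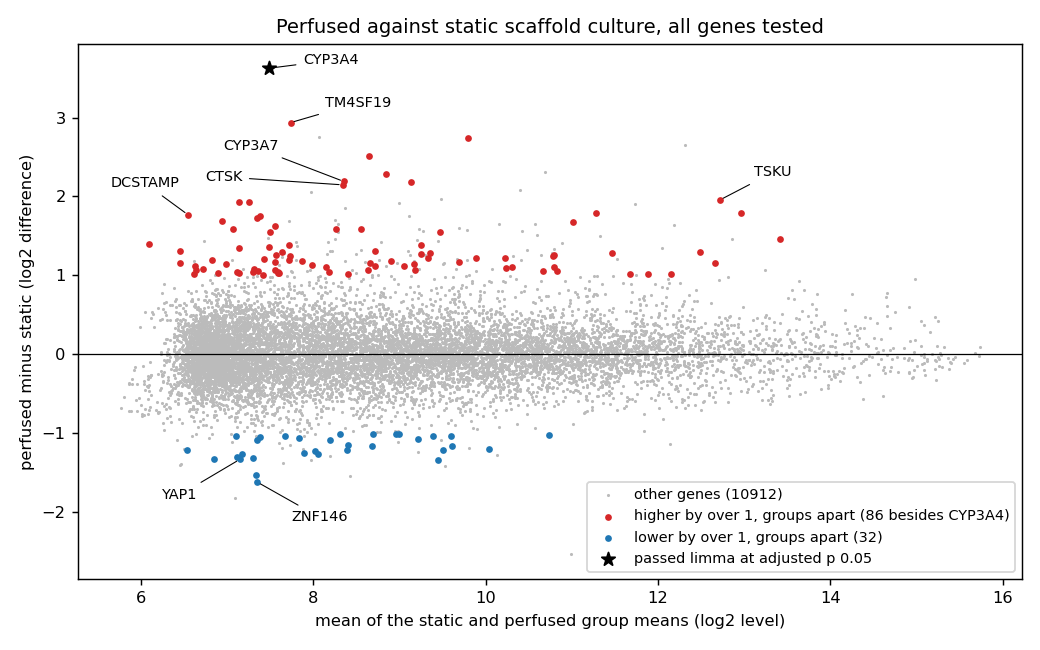
Log2 difference, perfused minus static, against the mean of both group means (log2 level) for each of 11031 genes. Red points (86) and CYP3A4 (star) are higher by over 1 with every perfused array above every static array, and blue points (32) are lower by over 1 with every perfused array below. CYP3A4 at 3.63 is the largest difference upwards and the only gene that passed limma at an adjusted p of 0.05.

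CYP3A4 rose under perfusion. Its level was 5.88, 5.54 and 5.59 on the static arrays, where its probe was not detected, and 9.06 and 9.53 on the perfused arrays, where it was. On the monolayers it was not detected either (5.85 ± 0.15, SD, n = 3). No static or 2D array came near the perfused ones. The difference was 3.63 (SE 0.24, 95% interval 3.08 to 4.17), with a limma adjusted p of 0.00223. Its probe entered the test through the perfused arrays alone, since probes detected on at least 2 arrays were kept. The gene also passed with no filter on dim probes (limma adjusted p 8.96e-04). On the static and 2D arrays the levels are background, with a small spread (SD 0.18 static and 0.15 in 2D). The SE, the interval and the p-values of both fits use that spread. They thus do not measure how CYP3A4 itself varies without perfusion, and the levels carry the description. Because the static levels are background, the fold is a bound: at least 5.36-fold higher under perfusion, with every static value raised to the lowest level detected on its array (6.81 to 6.94).

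Over 21 alternatives the CYP3A4 difference ran from 1.99 to 3.86, and its limma adjusted p from 3.27e-04 to 0.0915. It passed in 19 of them. It missed in a fit of the 5 scaffold arrays alone (adjusted p 0.0648) and with chip as a fixed block (adjusted p 0.0915), where 2 perfused arrays meet static replicate 1. The difference was 3.73 without static replicate 1 and 3.42 against it alone.

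CYP3A7 had the second smallest p of all genes. It was at 7.45, 6.88 and 7.45 on the static arrays and at 9.05 and 9.84 on the perfused ones, and at 6.74 ± 0.38 (SD, n = 3) in 2D. The groups were apart by 1.60, and the difference was 2.19 (SE 0.36, unadjusted p 2.4e-04, limma adjusted p 0.9996), so CYP3A7 did not pass. The difference was 2.28 without static replicate 1 and 2.00 against it alone.

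CYP3A5, whose promoter also holds the strict ER6 match, was at 10.40, 10.31 and 9.97 on the static arrays and at 10.37 and 10.02 on the perfused ones. The groups overlap fully, with a difference of -0.03 and a 95% interval of -0.86 to 0.79. The difference was 0.05 without static replicate 1 and -0.20 against it alone, so its sign turned with the arrays used. The fourth gene of the cluster, CYP3A43, was not detected on any array. ITGB1BP2, a muscle chaperone gene with the strict match, was not detected under perfusion. NR1I2 was not analysed here, and NR1I3, the related receptor CAR, was detected on 1 of 8 arrays and did not pass the detection filter.

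POR, the reductase of the microsomal P450 enzymes, was at 10.09, 10.09 and 10.33 on the static arrays and at 11.25 and 11.59 on the perfused ones. Both perfused arrays lay above all other arrays of the series, the 2D arrays at 9.81 ± 0.48 (SD, n = 3) included. The difference was 1.25 (SE 0.31, unadjusted p 0.00325), 1.21 without static replicate 1 and 1.33 against it alone. Of 7 measured redox partners and receptors, POR was the only member whose groups did not overlap, and the median of the list was 0.08 (0.09 without static replicate 1 and 0.24 against it alone).

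Cytochrome P450 genes of drug metabolism were mostly higher under perfusion. Of 25 written, 16 were measured, 14 were higher (50.2% of all genes were), 1 passed the test and 5 did not overlap, against 8.95% of all genes. The median difference was 0.58 against 0.00 over all genes, 0.47 without static replicate 1 and 1.23 against it alone. The mean level over the 16 genes was 9.35, 9.76 and 9.97 on the static arrays and 10.69 and 10.56 on the perfused ones. CYP3A4 and CYP3A7 belong to this list, and its remaining members gave smaller or more variable differences.

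CYP2C8, which oxidises paclitaxel and arachidonic acid, was at 12.38, 12.24 and 13.44 on the static arrays and at 14.22 and 14.07 on the perfused ones. The difference was 1.46 with an SE of 1.09, since the 2D arrays that share the estimate of error spread widely (10.14 ± 2.33, SD, n = 3). CYP1A2, a target of the aryl hydrocarbon receptor that oxidises caffeine, was at 10.97, 11.93 and 13.32 against 13.65 and 14.08, a difference of 1.79 (SE 1.57) that was 2.90 against static replicate 1 alone. Its static arrays spanned more than the gap between the groups. CYP1A1, a target of the same receptor, overlapped, at 11.22, 11.35 and 12.17 against 12.10 and 12.06. CYP2D6 and CYP2E1 overlapped too, with differences of 1.18 (SE 0.85) and 0.42 (SE 0.93). The latter was 0.05 without static replicate 1 and 1.16 against it alone.

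CYP2A6, which oxidises nicotine and coumarin, stands outside the genes tested because its probe was detected on only 1 array, perfused replicate 2. It was chosen for mention after its values were seen. Its level was 5.40, 5.44 and 5.51 on the static arrays, 5.37 to 5.42 in 2D, and 6.59 and 6.89 on the perfused arrays. The perfused levels stand above all others and yet lie near the lowest detected level. On perfused replicate 1 the level was below the lowest detected on that array (6.79), and on perfused replicate 2 just above it (6.77). With no filter on dim probes, CYP2A6 passed along with CYP3A4 (difference 1.29, limma adjusted p 0.00263), the 2 genes called of 20046. The CYP2A6 error (SE 0.099) rests mostly on background levels, so this p gives no support of its own. Neither probe of CYP2B6, another target of xenobiotic receptors, was detected on any array.

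**Figure D2:**
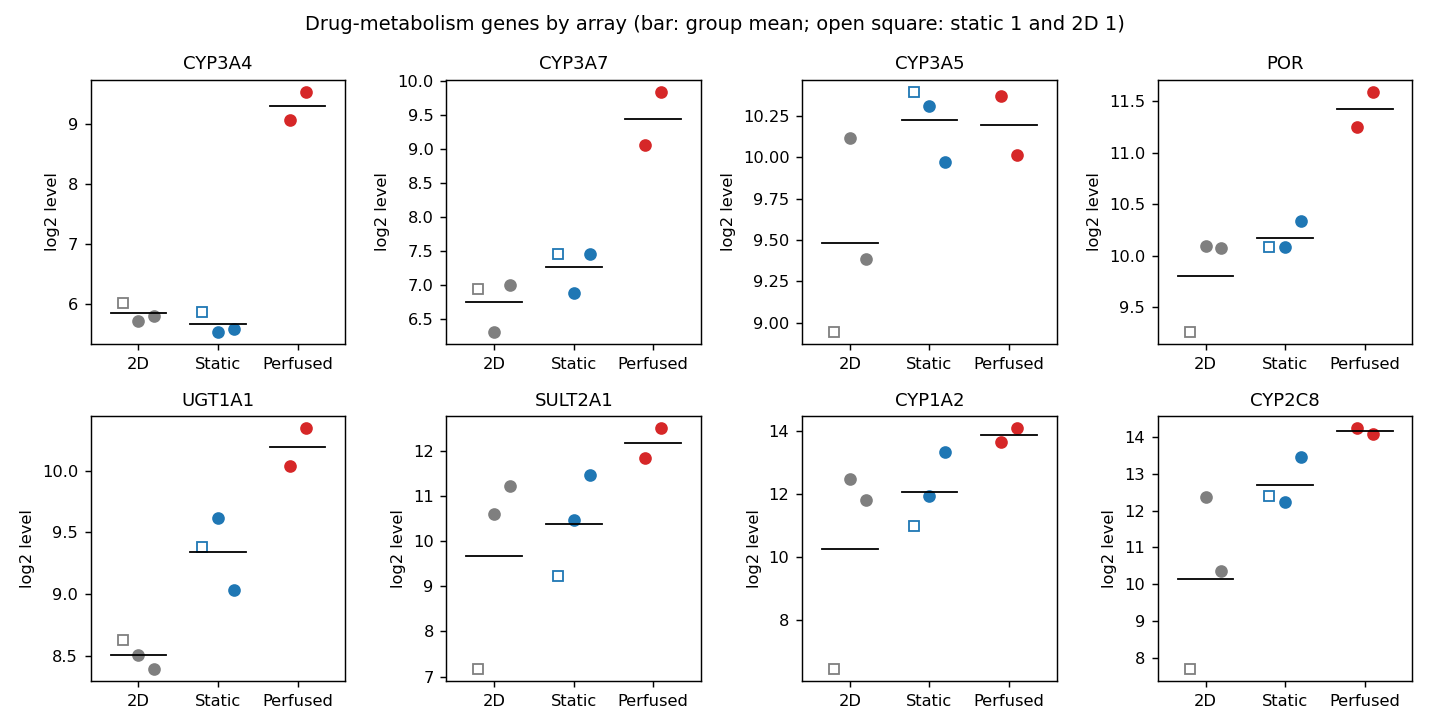
Log2 level on each array for 8 drug-metabolism genes in 2D (3 arrays), static (3) and perfused (2) culture, with a bar at each group mean and open squares for static replicate 1 and 2D replicate 1. For CYP3A4 the perfused arrays sit at 9.06 and 9.53 and all others at 6.02 or lower, while CYP3A5 overlaps; each panel has its own axis, which does not start at 0.

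Other enzymes of drug metabolism gave smaller differences. Of 31 other phase I enzymes, 23 were higher, 3 did not overlap upwards (8.95% of all genes) and 2 downwards (8.31%), and none passed, with a median of 0.38 (0.25 without static replicate 1 and 0.31 against it alone). Of 31 phase II enzymes, which attach polar groups, 23 were higher, 6 did not overlap upwards and 2 downwards, against the same shares, and none passed, with a median of 0.24 (0.22 without static replicate 1 and 0.29 against it alone).

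UGT1A1, the enzyme that conjugates bilirubin, was at 9.39, 9.61 and 9.03 on the static arrays and at 10.04 and 10.34 on the perfused ones. The groups did not overlap, and the difference was 0.85 (SE 0.27, unadjusted p 0.0125), or 1.80-fold. SULT2A1, which sulphates steroids and bile acids, was at 9.22, 10.48 and 11.46 against 11.85 and 12.49, a difference of 1.79 (SE 1.12) across a static group that itself spanned over 2. It was 2.95 against static replicate 1 alone. Monoamine oxidase MAOB went the other way, at 8.81, 9.08 and 9.07 against 8.69 and 8.17.

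Of 23 hepatocyte transporters, 14 were higher, 2 did not overlap upwards (8.95% of all genes) and none passed. The median was 0.16 and 0.39 without static replicate 1, but against that array alone it was -0.23 with 15 of 23 lower, so the list has no settled direction. ABCB1, the drug efflux pump P-glycoprotein, was at 11.04, 10.16 and 10.46 on the static arrays and at 11.42 and 11.32 on the perfused ones. The difference of 0.82 (SE 0.30) was 0.33 against static replicate 1 alone. AQP9, a channel for glycerol and urea, was at 9.50, 9.64 and 9.94 against 10.63 and 10.95, a difference of 1.10 (SE 0.42) that was 1.0 without static replicate 1 and 1.29 against it alone.

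Among all genes, several outside drug metabolism had small p-values upwards, though none passed. DIO1, the deiodinase that activates thyroid hormone, was at 8.76, 8.63 and 8.75 on the static arrays and at 9.86 and 10.13 on the perfused ones. The static arrays were within 0.13 of each other, and the difference was 1.28 (SE 0.25, unadjusted p 7.91e-04). All 3 probes of DIO1 were higher, by 0.88 to 1.61. TSKU, a protein that liver secretes into plasma, was at 11.66, 11.35 and 12.22 against 13.17 and 14.23, a difference of 1.96 (SE 0.48) that was 1.92 without static replicate 1 and 2.04 against it alone.

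SLC48A1, a haem transporter, was at 7.30, 6.62 and 6.55 on the static arrays and at 8.03 on both perfused ones (difference 1.21, SE 0.28). ARID3A, a DNA-binding protein, was at 7.38, 7.29 and 7.59 against 8.52 and 8.58 (1.13, SE 0.27). IL22RA1, the receptor subunit through which hepatocytes sense interleukin 22, was not detected on the static or 2D arrays and was detected on both perfused ones, at 6.86 and 7.40. Its fold is at least 1.19. The IL22RA1 probe met the detection filter through the perfused arrays alone, so its small p and its detection pattern give no support of their own. SLC66A1, a lysosomal exporter of basic amino acids, was likewise not detected on the static arrays and was at 7.37 and 7.75 under perfusion, at least 1.61-fold higher by the brighter of its 2 probes. Its other probe gave a difference of 0.26 against 1.14. The SLC48A1 difference was 0.73 against static replicate 1 alone. For these 4 genes the perfused arrays stood above all static arrays.

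Lysosome genes were higher under perfusion as a group by count. The list of 60 textbook members was added after single members had been seen to differ, and it is described only. Of 49 measured, 45 were higher, 23 did not overlap upwards (8.95% of all genes) and 0 downwards, and none passed the test. The median difference was 0.47, 0.33 without static replicate 1 and 0.70 against it alone. It kept its sign in all 21 alternatives, from 0.33 to 0.70. Without static replicate 1, 27 of the 49 did not overlap upwards, against 21.5% of all genes. The mean level was 9.92, 10.36 and 10.31 on the static arrays and 10.73 and 10.61 on the perfused ones, so the groups were apart.

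MCOLN1, the calcium channel of the lysosomal membrane, was at 9.16, 9.26 and 8.88 on the static arrays and at 10.37 and 10.17 on the perfused ones. The gap between the groups was 0.91 and the difference 1.17 (SE 0.42), with 1.20 without static replicate 1 and 1.12 against it alone. LIPA, which cleaves cholesterol esters in the lysosome, was at 10.85, 11.48 and 11.19 against 12.26 and 12.11 (1.01, SE 0.37). NEU1, a sialidase, was at 10.002, 10.14 and 10.25 against 10.78 and 11.60 (1.06, SE 0.45). Both perfused arrays were above all static arrays for each of these 3 genes. In 2D, MCOLN1 was at 8.61, 10.04 and 9.91, LIPA at 10.92, 12.06 and 11.996, and NEU1 at 9.50, 10.29 and 11.08. NEU1 on 2D replicate 3 was thus above perfused replicate 1, and LIPA on 2D replicates 2 and 3 was close to the perfused arrays.

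GM2A, which presents gangliosides to their hydrolase, was at 7.94, 8.24 and 8.08 on the static arrays and at 9.28 and 8.75 on the perfused ones (0.92, SE 0.29). ATP6AP1, an accessory subunit of the proton pump, was at 11.83, 12.002 and 12.08 against 12.63 and 12.66 (0.67, SE 0.39). The membrane protein LAMP1 was at 12.998, 13.21 and 13.36 against 13.67 and 13.73 (0.51, SE 0.32). For the proteases CTSD and CTSB the difference was carried mostly by static replicate 1: 0.94 and 0.77 over all static arrays, 0.46 and 0.16 without it, and 1.89 and 1.99 against it alone. NAGLU, an enzyme of heparan sulphate breakdown, was at 10.10, 9.94 and 9.77 against 10.02 and 9.87, with full overlap.

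Among the largest differences were 3 genes known from osteoclasts, the bone-resorbing cells of the macrophage lineage. They were picked for their values, and no list of osteoclast genes was made. TM4SF19, a membrane protein of osteoclasts, was not detected on the static arrays (5.48, 6.67 and 6.65) and was at 9.95 and 8.47 on the perfused ones, at least 5.04-fold higher. DCSTAMP, which osteoclast precursors need to fuse, was not detected on the static or 2D arrays and was at 7.76 and 7.10 under perfusion, at least 1.47-fold higher (difference 1.77, unadjusted limma p 6.41e-04). Its probe met the detection filter through the perfused arrays alone, so this p gives no support of its own. CTSK, the collagen-degrading protease of osteoclasts, was at 6.45, 7.27 and 8.09 against 10.03 and 8.80 (2.15, SE 0.85). In 2D, TM4SF19 was at 5.45, 8.39 and 6.07, and CTSK was at 6.02, 9.07 and 7.85. On 2D replicate 2, TM4SF19 was thus close to its level on perfused replicate 2, and CTSK was above its level there. The 2 perfused arrays differed by over 1 in TM4SF19 and CTSK, and in both genes replicate 1 was the higher. MMP9, a protease of the same cells, overlapped between the groups, with a difference of 2.66 that was 0.44 without static replicate 1 and 7.10 against it alone.

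GPNMB, a lysosome-associated glycoprotein of macrophages, was at 5.37, 9.92 and 10.003 on the static arrays and at 11.77 and 10.57 on the perfused ones. Its difference of 2.74 was 1.21 without static replicate 1 and 5.80 against it alone, and its second probe gave 1.23. In 2D, GPNMB was at 5.37, 11.73 and 10.01. CPVL, a carboxypeptidase first found in macrophages, was not detected on the static arrays and was at 8.33 and 7.38 on the perfused ones, at least 1.98-fold higher, while its second probe gave a difference of 0.21 against 1.58. CPVL was detected on all 3 2D arrays, at 6.76, 8.11 and 7.57. CSF1, the growth factor of macrophages, was at 6.66, 7.14 and 7.46 against 7.92 and 8.32 (1.03, SE 0.35).

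The macrophage markers themselves were also mostly higher than the static mean. Of 21 measured, 20 were higher, 1 did not overlap upwards (8.95% of all genes) and none passed, with a median of 0.93. The mean level was 6.94, 9.71 and 9.27 on the static arrays and 10.28 and 9.09 on the perfused ones, so the groups overlap, and the median was 0.27 without static replicate 1 and 2.61 against it alone. Without it, 1 of 21 was apart upwards (21.5% of all genes) and 1 downwards (16%). Without that array the differences of TM4SF19, CTSK and DCSTAMP were 2.54, 1.74 and 1.67. Perfused replicate 1, the higher of the 2 in these genes, also had the higher macrophage mean. Of all 8 arrays, 2D replicate 2 had the highest macrophage mean, 10.33. The part of macrophage content in these genes and in the lysosome list was not tested. In bulk RNA, more cells of a type and more RNA per cell cannot be told apart.

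**Figure D3:**
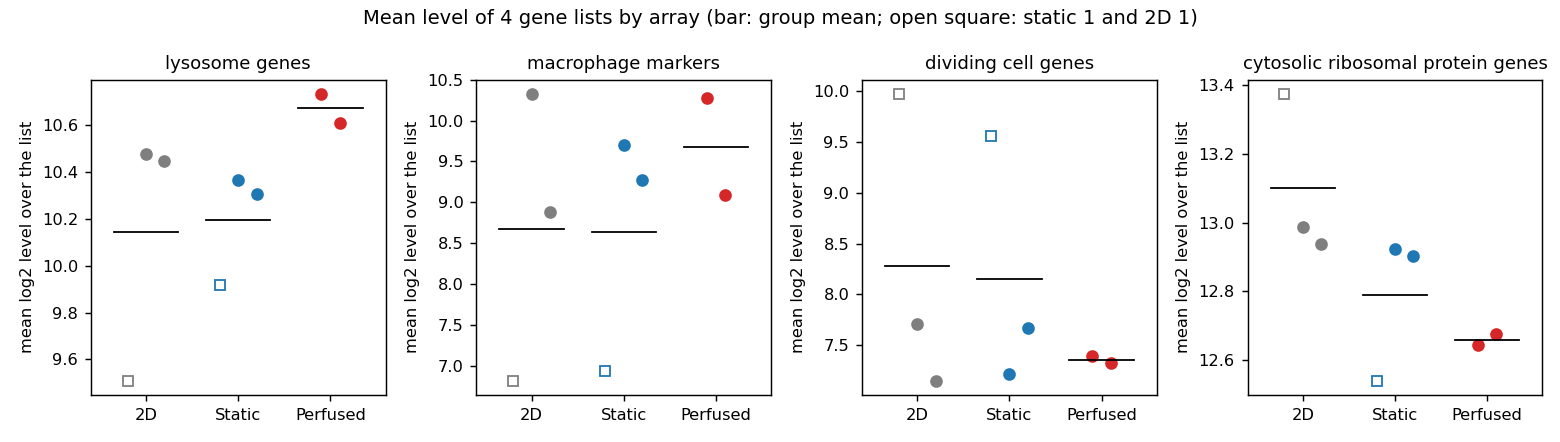
Mean log2 level on each array over 49 lysosome genes, 21 macrophage markers, 36 dividing cell genes and 65 ribosomal protein genes in 2D, static and perfused culture, with a bar at each group mean and open squares for static replicate 1 and 2D replicate 1. The lysosome means of the perfused arrays (10.73 and 10.61) are above all others, and the macrophage means overlap between groups.

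Genes of lipid metabolism were mostly higher by count. Of 36 genes of fatty acid oxidation and ketogenesis 30 were higher and 9 did not overlap upwards, against 8.95% of all genes, with a median of 0.32 (0.25 without static replicate 1 and 0.35 against it alone). Of 23 genes of cholesterol synthesis and uptake 19 were higher but 2 did not overlap upwards, a share near that of all genes. Their median was 0.47 (0.46 without static replicate 1 and 0.22 against it alone), and it was 0.80 without perfused replicate 1 and 0.14 without perfused replicate 2. Of 29 genes of lipogenesis and lipid storage 21 were higher and 4 did not overlap upwards, with a median of 0.29 (0.36 without static replicate 1 and 0.20 against it alone). None of these genes passed the test.

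FADS1 and FADS2, the desaturases that make long polyunsaturated fatty acids and lie next to each other in the genome, were higher together. FADS1 was at 11.87, 11.37 and 12.26 on the static arrays and at 12.86 and 13.41 on the perfused ones (1.30, SE 0.44). FADS2 was at 10.18, 9.06 and 9.61 against 10.54 and 11.13 (1.22, SE 0.39). In both genes the groups were apart, and without static replicate 1 the differences were 1.32 and 1.50, and against it alone 1.26 and 0.66. SC5D, which acts late in cholesterol synthesis, was at 10.49, 10.45 and 11.19 against 11.24 and 11.64 (0.73, SE 0.37).

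EHHADH, an enzyme of peroxisomal fatty acid oxidation, was at 8.80, 9.39 and 9.76 on the static arrays and at 9.88 and 10.27 on the perfused ones (0.76, SE 0.35), a difference of 0.50 without static replicate 1 and 1.28 against it alone. CPT1A, which admits fatty acids to mitochondria, overlapped, at 6.90, 6.39 and 6.07 against 6.83 and 7.70. Its difference of 0.81 was 1.03 without static replicate 1 and 0.36 against it alone. ECI2, an isomerase of fatty acid oxidation, went the other way, at 10.64, 10.48 and 10.72 against 10.08 and 9.30 (-0.92, SE 0.45), while its second probe gave -0.17. The plasma apolipoprotein gene APOA2 was at 14.82, 13.95 and 14.75 against 15.35 and 15.57 (0.95, SE 0.32), with both perfused arrays above the static ones.

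Of 14 bile acid synthesis genes, 9 were higher and 4 did not overlap upwards (8.95% of all genes), with a median of 0.36 that was 0.41 without static replicate 1 and -0.03 against it alone. CYP39A1, which hydroxylates an oxysterol, was at 7.03, 5.86 and 7.06 on the static arrays and at 7.56 and 7.51 on the perfused ones (0.88, SE 0.36), a difference of 0.51 against static replicate 1 alone. Of 40 urea cycle and amino acid genes, 30 were higher and 7 did not overlap upwards (8.95% of all genes), with a median of 0.13 that was 0.30 without static replicate 1. Against that array alone 20 were higher and 20 lower, with a median of -0.02. GLUL is the glutamine synthetase of the cells around the central vein. Its brighter probe was not detected on the static arrays and was at 7.29 and 7.18 under perfusion, at least 1.29-fold higher, a difference of 0.73. The second GLUL probe, of nearly the same mean level, gave 0.18. OTC of the urea cycle was at 10.93, 9.86 and 10.58 against 11.26 and 11.52 (0.93, SE 0.64), a difference of 0.46 against static replicate 1 alone.

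NRF2 and oxidative stress genes were higher in count, and much of this lay in perfused replicate 2. Of 26 measured, 22 were higher and 6 did not overlap upwards (8.95% of all genes). The median was 0.39 (0.52 without static replicate 1 and 0.13 against it alone), and it was 0.64 without perfused replicate 1 and 0.04 without perfused replicate 2. NQO1, a quinone reductase, was at 11.61, 11.54 and 11.78 on the static arrays and at 12.30 and 12.90 on the perfused ones (0.95, SE 0.30). HMOX1, which degrades haem, was at 9.07, 10.47 and 10.99 against 11.28 and 12.43 (1.67, SE 0.81), a difference of 2.78 against static replicate 1 alone. In both genes perfused replicate 2 was the highest array of the 5. In 2D, NQO1 was at 11.61, 11.87 and 12.44 and HMOX1 at 8.74, 10.28 and 11.42. On 2D replicate 3 both genes were thus above perfused replicate 1. The mean level of the list was 11.48, 11.15 and 11.44 on the static arrays and 11.42 and 12.05 on the perfused ones, so the groups overlap. In 2D it was 11.70, 11.27 and 11.80.

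Among genes that were lower under perfusion, YAP1 had the smallest p. YAP1 is the coactivator through which cells turn tension and contact into growth signals. Its level was 7.48, 8.01 and 7.95 on the static arrays and 8.14 ± 0.29 (SD, n = 3) in 2D, and it was not detected on the perfused arrays, at 6.62 and 6.34. All 6 other arrays detected it. The difference was -1.34 (SE 0.29, unadjusted p 0.00166), and the static level was at least 2.05-fold higher. It was -1.50 without static replicate 1 and -1.0 against it alone.

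The list of YAP and TAZ targets lay on both sides of 0. It holds YAP1 itself, which is counted below among the lower genes and among those with no overlap downwards. Of 23 measured, 14 were lower and 4 did not overlap downwards (8.31% of all genes), and 2 did not overlap upwards, with a median of -0.23 (-0.23 without static replicate 1 and -0.34 against it alone), which was -0.04 when array medians were set equal. CCN2, connective tissue growth factor, was at 12.25, 12.84 and 12.70 on the static arrays and at 12.26 and 11.76 on the perfused ones (-0.59, SE 0.26), with overlap and a difference of -0.25 against static replicate 1 alone. CCN1, a second widely used target, was at 13.67, 13.52 and 13.22 against 13.42 and 13.52, a difference of 0.01 with a 95% interval of -0.52 to 0.53. It was 0.11 without static replicate 1 and -0.20 against it alone.

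CSRP2, a LIM protein of the actin cytoskeleton, was at 9.63, 9.50 and 10.14 on the static arrays and at 8.72 and 8.64 on the perfused ones (-1.07, SE 0.27). The perfused level was within 0.05 of the 2D mean of 8.73 ± 0.07 (SD, n = 3). TUBB2B, a beta-tubulin, had the same pattern, at 8.52, 8.41 and 8.96 against 7.19 and 7.61, with 7.12 ± 0.46 (SD, n = 3) in 2D. For both genes the static arrays were above all 5 other arrays of the series.

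ZNF146, a zinc finger protein, was at 8.54, 8.06 and 7.88 on the static arrays and was not detected on the perfused ones, at 6.61 and 6.47, so the static level was at least 2.61-fold higher. NKRF, a repressor at NF-kappaB sites, was at 7.67, 7.92 and 8.11 against 6.79 and 6.92 (-1.05, SE 0.29). TRA2B, a splicing factor, was at 9.70, 9.97 and 9.78 against 8.94 and 8.88 (-0.90, SE 0.27). IL1RL1, the interleukin 33 receptor, was detected on all static arrays and on neither perfused one, at 7.26, 7.88 and 8.28 against 6.59 and 6.50, a difference of -1.26 that was -0.72 against static replicate 1 alone. Its 2 other probes gave -0.33 and 0.29. The growth factor PDGFC was at 8.49, 9.17 and 8.79 against 8.05 and 7.56 (-1.01, SE 0.29).

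**Figure D4:**
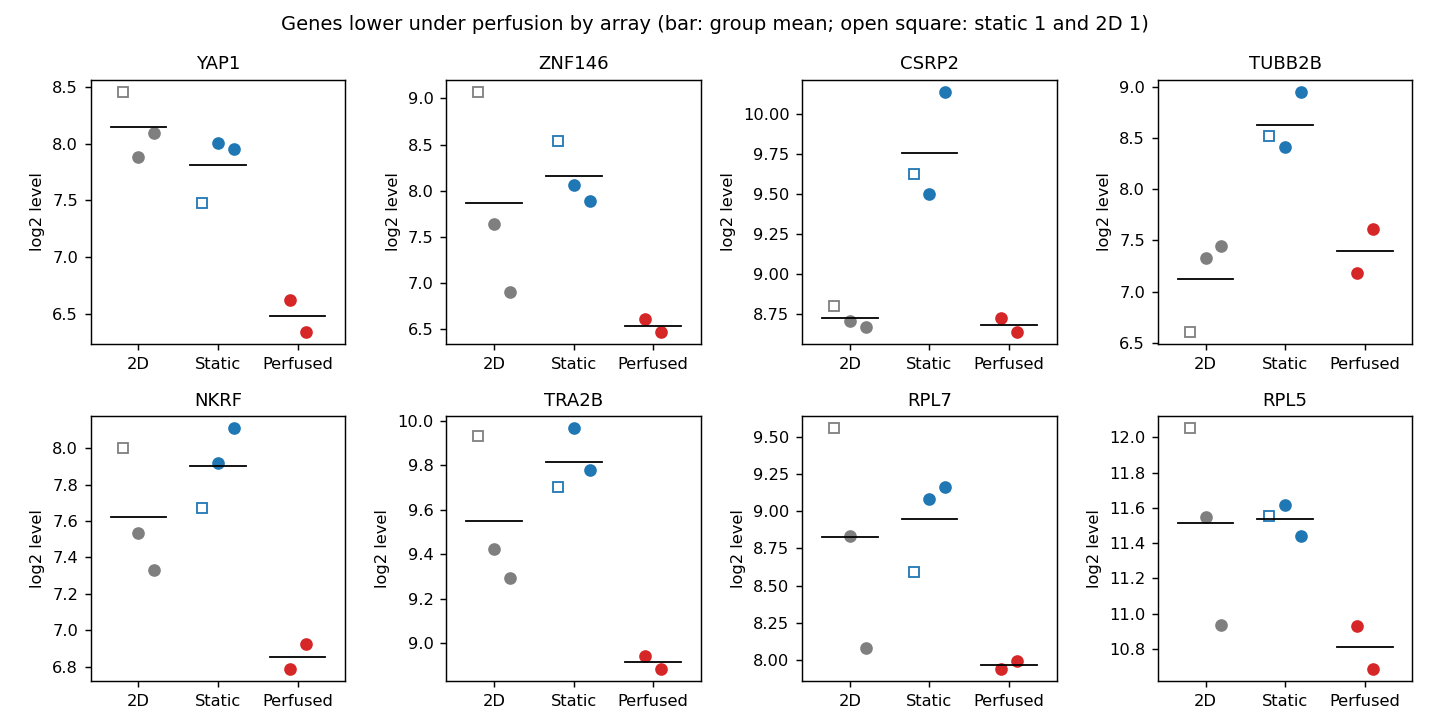
Log2 level on each array for 8 genes that were lower on both perfused arrays than on all 3 static arrays, with the 2D arrays beside them, a bar at each group mean and open squares for static replicate 1 and 2D replicate 1. YAP1 and ZNF146 lie at 6.62 or lower under perfusion, and CSRP2 and TUBB2B are higher on the static arrays than on all others; each panel has its own axis, which does not start at 0.

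Ribosomal protein genes had small differences whose sign depended on the scaling. Of 65 measured, 47 were lower, 16 did not overlap downwards (8.31% of all genes) and 0 upwards, with a median of -0.06. Without static replicate 1 the median was -0.18 and 37 did not overlap downwards, against 16% of all genes, and against static replicate 1 alone it was 0.02. The sign turned to 0.08 when array medians were set equal and to 0.07 in the authors' processed values, so no direction is given for the family. RPL7 was at 8.59, 9.08 and 9.17 on the static arrays and at 7.94 and 8.00 on the perfused ones (-0.98, SE 0.42), a difference of -0.62 against static replicate 1 alone. RPL5 was at 11.55, 11.62 and 11.44 against 10.93 and 10.69 (-0.73, SE 0.32). Ribosomal protein genes have many near-identical pseudogenes, whose transcripts could share these probes.

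Genes that respond to shear had no settled direction. Of 26 shear stress and mechanosensing genes 18 were lower, but 3 did not overlap downwards (8.31% of all genes) and 4 upwards (8.95%). The median was -0.18, and -0.25 without static replicate 1, and against that array alone 14 of 26 were higher (median 0.07). KLF2, the best known flow-induced factor of endothelium, was at 9.15, 10.18 and 10.55 on the static arrays and at 9.38 and 10.08 on the perfused ones, a full overlap with a 95% interval of -1.35 to 0.89. The difference was -0.23, -0.63 without static replicate 1 and 0.59 against it alone. EDN1, endothelin, was at 9.52, 9.34 and 9.54 against 7.99 and 8.99 (-0.98, SE 0.44). Of 23 immediate early genes 16 were lower and 5 did not overlap downwards (8.31% of all genes). The median was -0.20 (-0.20 without static replicate 1 and -0.08 against it alone), and it was -0.03 when array medians were set equal.

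ATF4, the transcription factor of the integrated stress response, was at 12.72, 12.16 and 12.51 on the static arrays and at 11.55 and 11.74 on the perfused ones (-0.82, SE 0.32). All 3 of its probes were lower, by differences of -0.82, -0.74 and -0.16. The list of unfolded protein response and ATF4 genes had 18 of 35 higher and 17 lower and a median of 0.01 (0.04 both without static replicate 1 and against it alone). The neutrophil chemokine CXCL2 was at 9.43, 10.66 and 10.27 against 9.16 and 8.99 (-1.04, SE 0.42), a difference of -0.35 against static replicate 1 alone. The interferon-induced chemokine CXCL10 was at 8.35, 8.42 and 9.07 against 9.57 and 10.19 (1.27, SE 0.61). Of 35 interferon response genes 18 were higher and 17 lower, with a median of 0.0031 (0.03 without static replicate 1 and 0.02 against it alone).

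Hypoxia and glycolysis genes did not separate the groups as lists. Of 30 hypoxia response genes outside glycolysis 18 were higher, 4 did not overlap upwards (8.95% of all genes) and 2 downwards (8.31%), with a median of 0.07 (-0.10 without static replicate 1 and 0.41 against it alone). Of 23 glycolysis genes 14 were lower, 4 of them with no overlap (8.31% of all genes), with a median of -0.05 (-0.0030 without static replicate 1 and -0.03 against it alone). LDHA, lactate dehydrogenase, was at 14.84, 14.95 and 14.92 on the static arrays and at 14.74 and 14.61 on the perfused ones (-0.23, SE 0.17). PFKFB4, a kinase induced by low oxygen, was at 10.58, 9.97 and 10.21 against 10.48 and 9.93, with a 95% interval of -0.70 to 0.60 for the difference, and at 8.26 ± 0.07 (SD, n = 3) in 2D. The difference was -0.05, 0.12 without static replicate 1 and -0.38 against it alone. On both kinds of scaffold PFKFB4 was thus above all 2D arrays.

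Secreted liver proteins were close to the background. Of 40 other plasma protein genes 25 were higher and 4 did not overlap upwards (8.95% of all genes), with a median of 0.14 (0.10 without static replicate 1 and 0.25 against it alone). Of 39 coagulation and complement genes 25 were lower and 4 did not overlap downwards (8.31% of all genes), with a median of -0.10 (-0.17 without static replicate 1 and 0.05 against it alone). The fibrinogen chain FGB was at 14.39, 14.54 and 15.06 on the static arrays and at 14.10 and 14.09 on the perfused ones (-0.57, SE 0.43), a difference of -0.30 against static replicate 1 alone, and its second probe gave -1.32. Acute-phase genes had a median of 0.09, which was -0.09 without static replicate 1 and 0.42 against it alone. Hepatocyte markers had a median of 0.01 (0.05 and -0.01 in the same order). Of 27 hepatocyte markers 14 were higher, 1 of which (CYP3A4) passed, and 13 lower.

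Markers of other cells varied with single arrays. All 36 dividing cell genes measured were lower under perfusion than the static mean, with a median of -0.79, and the median was -0.05 without static replicate 1 and -2.25 against it alone. Their mean was 9.56, 7.22 and 7.67 on the static arrays and 7.39 and 7.32 on the perfused ones, so the groups overlap. Of 13 stellate cell and fibroblast markers 8 were higher (median 0.24), and 10 were lower without static replicate 1 (median -0.37). Against it alone the median was 1.02. Of 11 endothelial markers 9 were lower, with a median of -0.54, which was -1.01 without static replicate 1 and 0.43 against it alone. Static replicate 3 had the highest endothelial mean, 9.03, against 6.67 to 7.51 on the other scaffold arrays. The junction protein ESAM was at 9.53, 9.06 and 9.93 on the static arrays and at 8.35 and 8.63 on the perfused ones (-1.02, SE 0.43).

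**Figure D5:**
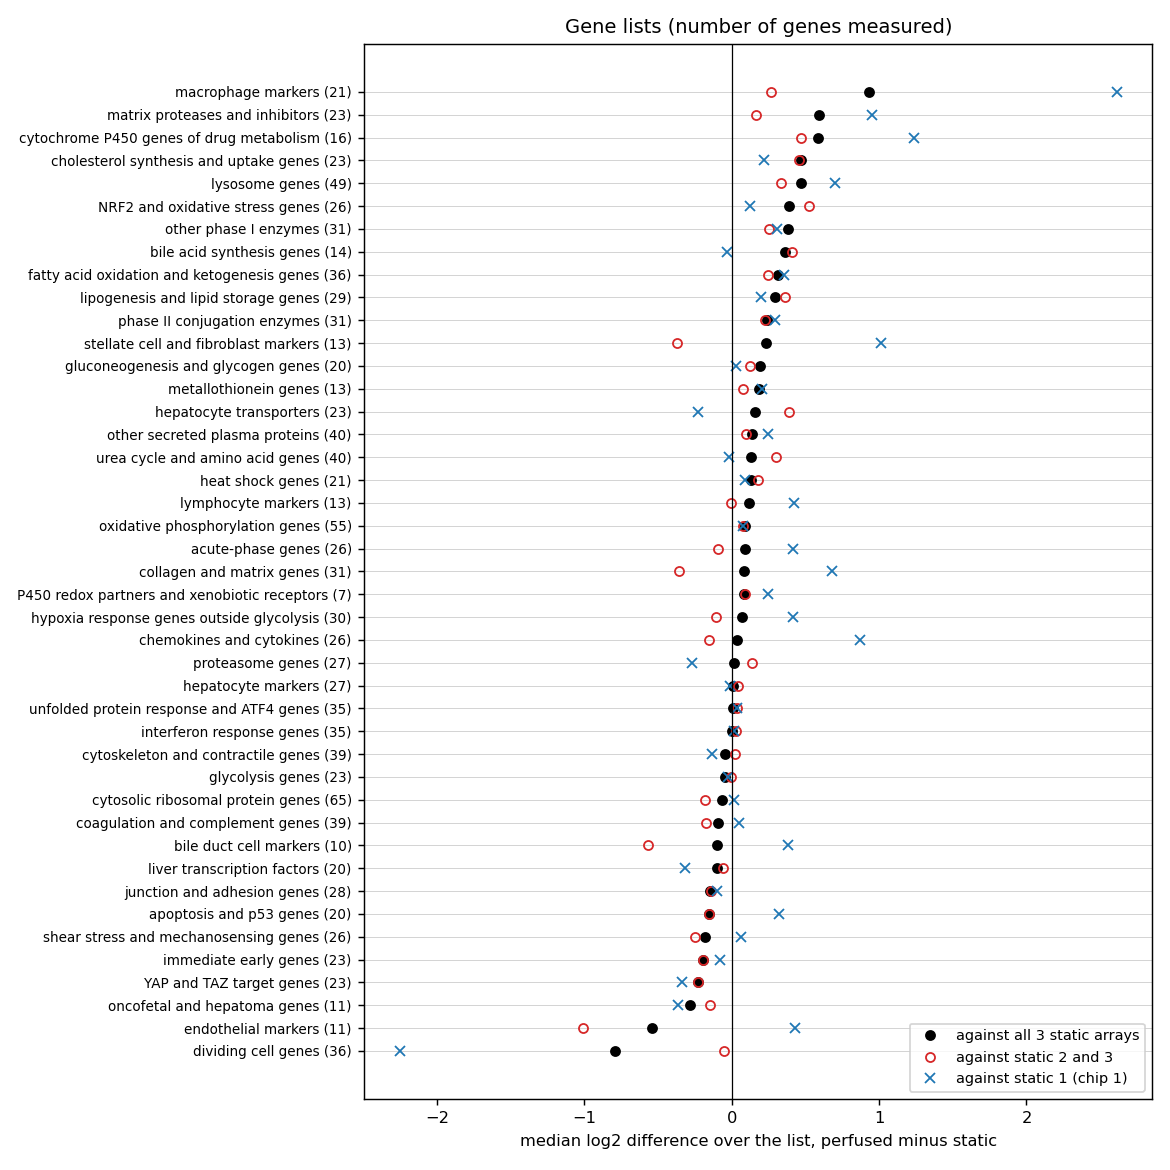
Median log2 difference, perfused minus static, over each of 43 gene lists against all 3 static arrays (black), against static replicates 2 and 3 (red rings) and against static replicate 1 alone (blue crosses), with the number of genes measured in brackets. P450, cholesterol, lysosome and fatty acid oxidation lists are among those above 0 by all 3 comparisons. The fibroblast median turns from 0.24 to -0.37 without static replicate 1. The macrophage and dividing cell medians keep their sign by all 3 comparisons but shrink without that array, to 0.27 and -0.05.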

How the data were processed

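Human liver cell cultures were measured on 8 Illumina HumanHT-12 v4 bead arrays, which read probes in 1 colour. Per the file headers, the authors deposited the mean bead intensity of each of 47323 probes per array and its detection p-value. They also deposited processed values, read from the values as log2, which served as an alternative; the sources used here do not state how these were normalised.

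The intensities were corrected for background (normexp from detection p-values, offset 16), quantile normalised over 8 arrays and taken to log2 with limma 3.58.1 in R 4.3.3. Probes detected (p under 0.05) on at least 2 arrays were kept, 18556 in all. CYP3A4, DCSTAMP and IL22RA1 met this filter through the 2 perfused arrays alone. The brightest probe with a single gene name stood for each of 11031 genes, and 4441 kept probes had no such name and were not reported. A mean per group was fitted to all 8 arrays with lmFit, and eBayes with an intensity trend gave two-sided p-values on 8.45 degrees of freedom (5 of them residual), adjusted by Benjamini-Hochberg over all genes. The fit was run on simulated data with independent noise and with no background floor or chip effect. That run therefore does not bear on how floor and chip affect the values here. The number of arrays limits the precision. Where a gene was undetected in a whole group, an "at least" fold takes each dim array at its lowest detected level, or at the probe's own value if that is higher.

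The comparison, the 43 gene lists and the genes named were chosen with earlier results of these data known. Named genes were those with the smallest p per direction, the widest gaps between groups with and without static replicate 1, the leading members of each list, and 53 fixed genes, of which 44 were measured. CYP2A6, CYP3A43, ITGB1BP2, GPNMB, CPVL and the members of the lysosome list were chosen after their values were seen.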

Additional observations from a re-analysis of the deposited data

How the results depend on the processing

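Against the 1 gene called higher and 0 lower, and the 87 genes higher and 32 lower by over 1 with no overlap, equal array medians gave 165 and 14 of the latter, no background correction 22 and 1, and the authors' processed values 3 lower. With no filter on dim probes 2 genes were called. Probes detected on all 5 scaffold arrays gave 0 called and 38 higher, a set that leaves out CYP3A4 (127 genes at an unadjusted limma p under 0.05). The 5 scaffold arrays alone gave 0 called (285 at an unadjusted p under 0.05). Chip as a fixed block gave 0 called (774 at an unadjusted p under 0.05), with 689 higher and 569 lower. Leaving out both static replicate 1 and 2D replicate 1 gave 86 lower, and all kept probes gave 139 and 80. With each array left out in turn the counts ran from 87 to 310 higher and from 32 to 273 lower, the most without perfused replicate 1. The lone perfused array was then assumed to vary like the other groups.

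Differences of 5 genes turned sign, of which COL1A1 (1.28 over all arrays) was not small. CYP3A5 was at 0.129 with equal medians, 0.0953 in the authors' values, 0.0126 with array weights and 0.0517 with both arrays left out, with -0.21 as the lowest and 0.15 as the highest value on leaving out single arrays. PFKFB4 was at 0.119, 0.0839, 0.0731 and 0.116 in the same settings and ran from -0.33 to 0.23. KLF2 was at 0.59 with chip as a fixed block and ran from -0.63 to 0.12. CCN1 was at -0.197 and -0.0287 with chip as a fixed and a random block and ran from -0.12 to 0.11. COL1A1 was at -0.60 with both arrays left out and ran from -0.60 to 2.33, the lowest without static replicate 1. The cause was not tested. No paired analysis was run, because the labels do not say which arrays share a source of cells.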
